A study of Mus musculus with 6 samples.

Results

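Binding of NF-YA just downstream of the starts of protein-coding genes was examined in MuSCs of wild-type mice. MuSCs, or muscle stem cells, rebuild skeletal muscle fibres after injury. Of the 9056 NF-YA peaks of the series, 559 (6.17%) were annotated to a protein-coding gene and had their centre more than 100 bp and at most 1000 bp downstream of the annotated gene start. They are called downstream peaks here. They belonged to 539 genes, which were 12.9% of the 4178 coding genes with any peak. The rule used position and gene type and no level. A total of 1747 coding peaks centred within 100 bp of the gene start, called core promoter peaks, and 1227 coding peaks centred 100 to 1000 bp upstream, called proximal upstream peaks, served for comparison.

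The peaks came from CUT&RUN, in which an antibody guides a nuclease to its target in permeabilised cells and the released DNA is sequenced. All samples were wild-type C57BL/6 MuSCs, labelled as activated and proliferating, which were sorted by surface markers and cultured. The series holds 6 libraries, 3 made with an antibody against NF-YA and 3 with mouse IgG. Values of the 3 NF-YA libraries are used below, and IgG values were not analysed here. The series had no second genotype, treatment or time, so each comparison is between groups of peaks within the same 3 libraries. Cultured, activated cells may differ from resting MuSCs in the muscle, and peak levels do not check the identity of the cells.

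NF-Y is a trimeric transcription factor made of NF-YA, NF-YB and NF-YC. NF-YB and NF-YC pair through histone folds, and NF-YA contacts the CCAAT box, a short element of many promoters. The box is found in either orientation and is best known from positions shortly upstream of the transcription start of cell cycle, chaperone and lipid synthesis genes. A gene often has several transcription starts, so a site downstream of its outermost start can lie upstream of an inner one.

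Sequences around the box are shown first, because its position is what many of the results turn on. Each line gives the box nearest the peak centre, read in the direction in which it spells CCAAT, with 12 bases on either side. Capitals mark the box, and the strand is that of the printed sequence. Coordinates are those of mm10. The first lines show the 5 downstream peaks with the highest mean level.
Cic (chr7:25267987-25268015, minus strand): aggatatgccctCCAATaaacaagctcga
Ppm1b (chr17:84957427-84957455, plus strand): tacgaatactagCCAATcccttttaggat
Fbxo24 (chr5:137628787-137628815, minus strand): tttcaaccaagaCCAATtgcaatctagat
Mylpf (chr7:127209210-127209238, plus strand): ttaacttgttagCCAATgactgtccttct
Cdca3 (chr6:124829850-124829878, plus strand): taactccgtcaaCCAATaaggatggctgt

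The next lines show the highest downstream peak of each gene list that held one, or the second highest for the cell cycle list. They stand for NF-Y itself, chromatin modification, the cell cycle, cholesterol synthesis, protein folding, myogenic control and partner factors.
Nfya (chr17:48409675-48409703, plus strand): ggaccccgaaacCCAATcagaggctccag
Kat7 (chr11:95309751-95309779, plus strand): cggcgtcaccatCCAATcaatacgcttct
Pcna (chr2:132252696-132252724, plus strand): cgacaccatagaCCAATcagaaagcgcgg
Idi1 (chr13:8885828-8885856, minus strand): tccagccaattgCCAATctagcacaagcc
Hspa8 (chr9:40801165-40801193, minus strand): atagcttcttagCCAATggacgaccagcc
Hes1 (chr16:30065230-30065258, minus strand): agtaactttcagCCAATgggaggaagaga
Znf143 (chr7:110061594-110061622, plus strand): gctaaatctagaCCAATcgagagcaagag

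Downstream peaks lay on the thin side of a sharply asymmetric distribution. They became rarer with distance, from 110 peaks centred at 100 to 200 bp to 30 at 900 to 1000 bp. Proximal upstream peaks fell off faster, from 766 to 16 in the corresponding bins, and beyond 400 bp downstream peaks were the more frequent in each bin. The median distance of downstream peaks was 392 bp. Peaks near the limits of the rule were as follows. Just inside 100 bp, *Opa3* at 102 bp held 350, 397 and 453 normalised reads in replicates 1, 2 and 3, and *Zfp607b* at 102 bp held 15, 9 and 18. Just outside, *Slc2a6* at 100 bp held 64, 52 and 87, and *Rab2b* at 100 bp held 26, 22 and 15. At the far limit, *Gamt* at 1000 bp held 12, 25 and 13 and *Fam126a* at 997 bp held 7, 3 and 1. Beyond it, *Prss30* at 1004 bp held 13, 22 and 13 and *Slc37a2* at 1007 bp held 23, 31 and 27. Levels on both sides of each limit overlapped.

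**Figure D1:**
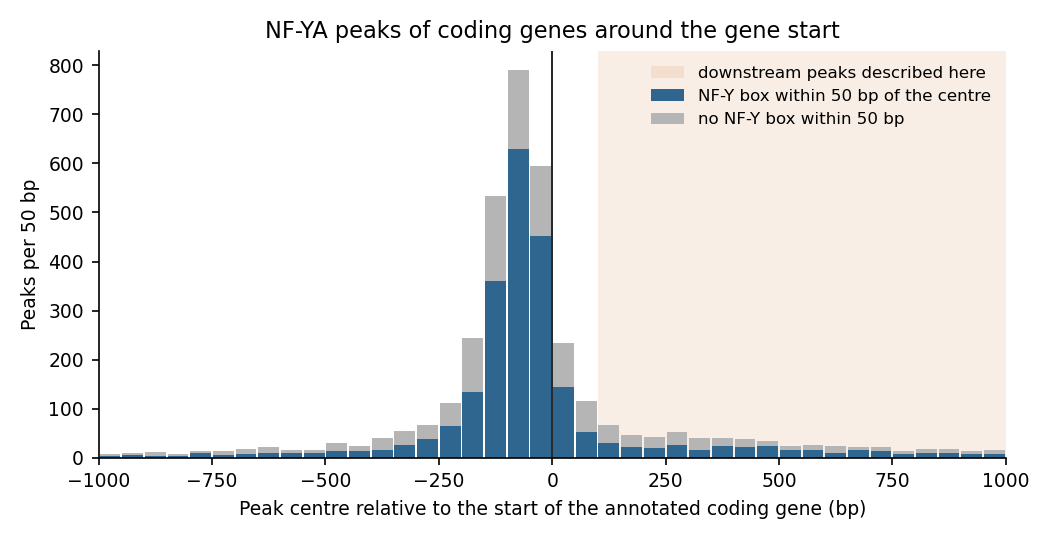
NF-YA peaks of protein-coding genes by the position of their centre relative to the gene start (x axis, bp, negative upstream), as the number of peaks per 50 bp (y axis), stacked by whether a CCAAT box lay within 50 bp of the centre. The shaded range holds the 559 downstream peaks, a flat shoulder beside the tall group of peaks just upstream of the start.

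The gene annotation at the centre placed most downstream peaks in the first intron or the 5' untranslated region (UTR). The centre lay in an intron in 286 peaks (51.2%), of which 279 were in intron 1 of at least 1 transcript, and in a 5' UTR in 208 (37.2%). A coding stretch held 22, a non-coding exon 29 and a 3' UTR 5, and 9 fell outside the annotated transcripts of their gene. The median GC content within 50 bp of the centre was 62.4%, close to that of core promoter peaks (61.4%) and above the median of all peaks (55.4%). The peaks were 100 to 1223 bp long, with a median of 226 bp.

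The level of a peak is given in normalised reads, that is, the reads counted in it after scaling by the size factor of each library and rounding. The median downstream peak held 22, 22 and 24 normalised reads in replicates 1, 2 and 3. Counting back through the size factors, this rested on about 33, 15 and 24 reads, for which counting alone gives a coefficient of variation (CV) of 17.4%, 25.9% and 20.6%. A mean of at least 10 was reached by 75.1% of downstream peaks, against 65.8% of all peaks. Levels above 3 reads in all 3 libraries were found for 480 of the 559 (85.9%), against 80.7% of all peaks. In replicate 2, which had the fewest estimated reads in peaks but not the fewest sequenced reads, 62 downstream peaks were at or below 3 reads.

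Downstream peaks were lower than both promoter classes in every library. Core promoter peaks had medians of 31, 30 and 32 normalised reads, so that the downstream median was lower by a log2 difference of -0.45 ± 0.04 (SD, n = 3 libraries). Proximal upstream peaks had medians of 35, 37 and 38, a log2 difference of -0.69 ± 0.05. Both differences had the same sign in 3 of 3 libraries, and both were larger than the spread between libraries. An exact two-sided sign-flip test over 3 libraries cannot give less than p = 0.25, which is the value of both, so no comparison of levels here could reach 0.05. Levels are not corrected for peak length, and values per kb brought the differences to -0.23 ± 0.09 and -0.32 ± 0.03. With peaks of a mean of at least 10 only, the difference to core promoter peaks was -0.0065 ± 0.06, which is within the spread between libraries.

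The comparison with proximal upstream peaks turned on whether a peak reached across the gene start. Of the downstream peaks, 89 (15.9%) were wide enough to span the start of their gene, compared with 528 (43.0%) of the proximal upstream peaks. The 89 held medians of 102, 111 and 128 normalised reads and the other 470 held 16, 18 and 17, a log2 difference of 2.74 ± 0.15 (n = 3). They were also longer, with a median of 547 bp against 197.5 bp, and the difference per kb was 1.23 ± 0.05. Among peaks that did not span the start, downstream peaks were the higher class, with 16, 18 and 17 against 13, 15 and 15 and a log2 difference of 0.25 ± 0.06. The direction against proximal upstream peaks therefore reversed when spanning peaks were left out. Peak length moved with these differences, and its part in them beyond the values per kb was not tested.

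**Figure D2:**
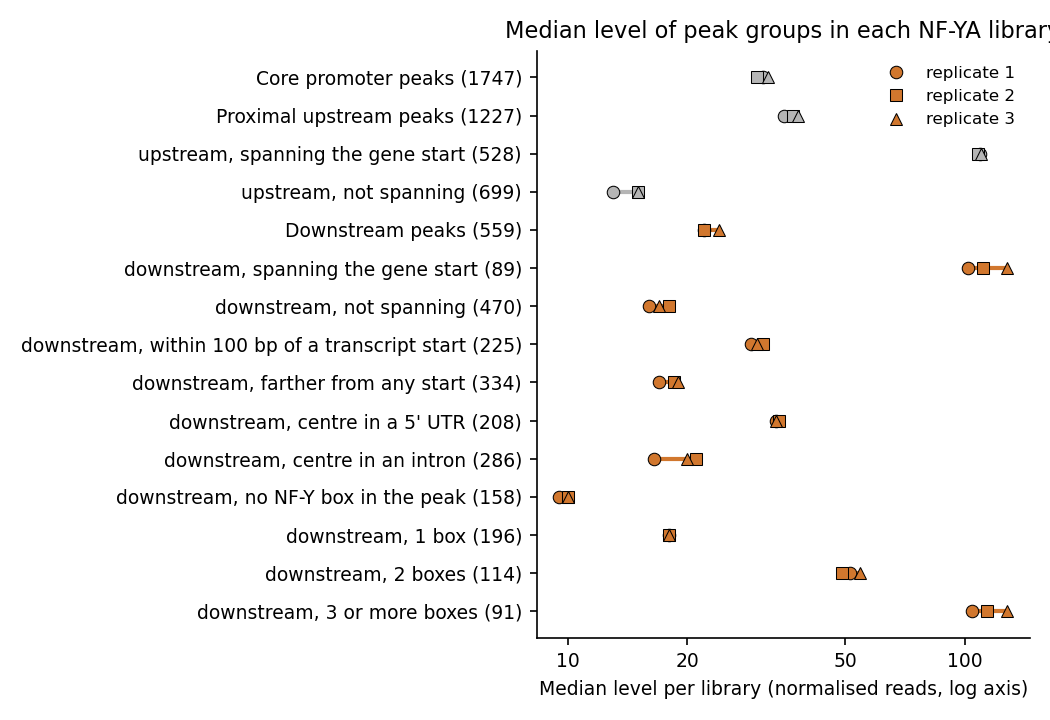
Median level of groups of peaks (rows, number of peaks in brackets) in each NF-YA library (symbols), in normalised reads on a log axis. Grey marks the comparison classes and orange the downstream peaks. Downstream peaks that span the gene start lie near 100 normalised reads, and those with 3 or more boxes lie at a like level.

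The box itself was as frequent near the centre of downstream peaks as in the peak set at large. CCAAT on either strand lay within 50 bp of the centre in 297 of 559 downstream peaks (53.1%, 95% Wilson interval 49.0 to 57.2%), which is the share of all peaks (52.9%). In windows of the same width placed 1000 bp to the left and to the right of the centres, the share was 12.3% and 11.3%. The share was 74.0% in core promoter peaks and 59.0% in proximal upstream peaks. The difference was -20.8 percentage points (95% Newcombe interval -25.4 to -16.2) from the former and -5.88 points (-10.8 to -0.923) from the latter. Among peaks that did not span the gene start it changed sign, with 55.7% in downstream and 47.1% in upstream peaks, a difference of 8.68 points (2.83 to 14.4). These intervals treat peaks as independent and cover counting error only. Over the whole length of the peak, 401 downstream peaks (71.7%) held a box, against 64.5% of all peaks, whose median length was 197 bp.

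Levels were higher the more boxes a downstream peak held. The 158 downstream peaks without a box anywhere had medians of 9.5, 10 and 10 normalised reads. The 196 peaks with 1 box had 18 in each library. The 114 peaks with 2 boxes had 51.5, 49 and 54.5, and the 91 with 3 or more had 104, 114 and 128. The steps did not overlap between libraries. From none to 1 box the log2 difference was 0.87 ± 0.04, and from 1 to 2 or more it was 2.07 ± 0.09 (n = 3, exact p = 0.25 for each). Length went along with the number of boxes, with medians of 150, 206, 325.5 and 473 bp, and the differences per kb were 0.50 ± 0.01 and 0.96 ± 0.10. Peaks that span the gene start also became more frequent in the same order, at 0.633%, 11.2%, 19.3% and 48.4%. The part of length beyond the values per kb, and that of spanning, was not tested.

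Boxes close to the centre gave the same order. Downstream peaks with a box within 50 bp had medians of 29, 28 and 31, and those without had 14, 18 and 18, a log2 difference of 0.82 ± 0.21. In proximal upstream peaks the same difference was 1.71 ± 0.14, and the gap between both differences was -0.89 ± 0.14 (exact p = 0.25). Among peaks that did not span the start the gap turned to 0.23 ± 0.07, with 0.91 ± 0.16 downstream and 0.68 ± 0.10 upstream. Peaks with a box were also longer in both classes. Per kb the box difference was 0.46 ± 0.13 in downstream and 0.98 ± 0.14 in proximal upstream peaks. Without spanning peaks it was 0.57 ± 0.08 and 0.43 ± 0.07 per kb, respectively.

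The strand of the box was compared with that of the gene. Of 390 boxes within 50 bp of a centre, 170 (43.6%, 38.8 to 48.5%) read CCAAT on the strand of the gene. It was 871 of 1742 boxes (47.7 to 52.3%) in core promoter peaks and 53.7% (50.6 to 56.8%) in proximal upstream peaks, from which downstream peaks differed by -10.1 points (-15.9 to -4.29). Over whole downstream peaks the share was 46.7% (43.2 to 50.1%), an interval that includes equal use of both strands. Boxes in one peak are not independent, so these intervals are too narrow to the extent that neighbours share a strand.

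Neighbouring boxes did share a strand more often than not. The 795 boxes of downstream peaks formed 394 pairs of neighbours, of which 268 (68.0%, 63.3 to 72.4%) lay on the same strand. Of these same-strand pairs, 125 (46.6%) were 26 to 45 bp apart, counted from start to start. In contrast, 14 were 6 to 25 bp apart and 31 were 46 to 65 bp apart. Within the crowded range, the bins of 31 to 35 bp and 41 to 45 bp held 38 and 43 pairs and the bin between them 18. Of the 126 pairs on opposite strands, 32 (25.4%) were 26 to 45 bp apart. Core promoter peaks had a like share of same-strand pairs in that range (49.2%, 45.7 to 52.7%), as had proximal upstream peaks (39.4%, 36.2 to 42.8%). The range was chosen after the distances were seen.

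**Figure D3:**
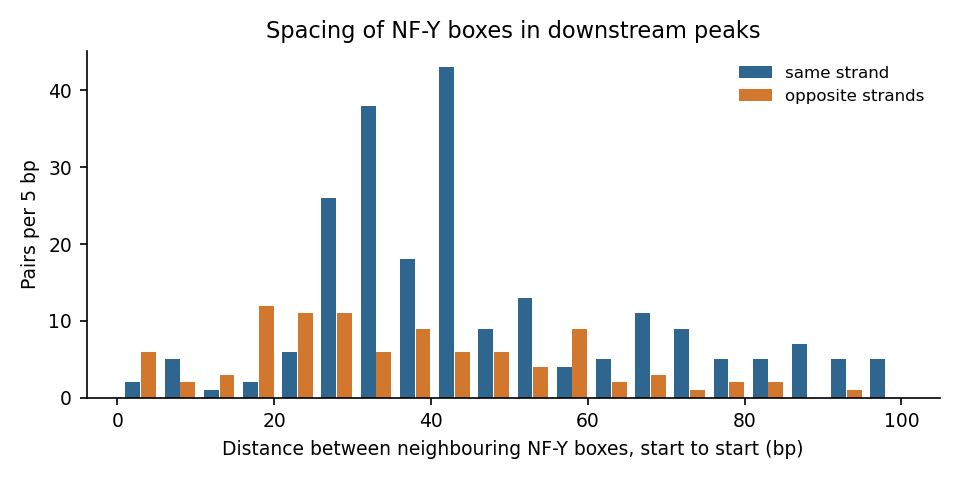
Distance between neighbouring CCAAT boxes within downstream peaks (x axis, bp from start to start), as the number of pairs per 5 bp (y axis) for pairs on the same strand and on opposite strands. Same-strand pairs crowd between 26 and 45 bp, with high bars of 38 and 43 pairs either side of a bar of 18.

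The known NF-Y element extends beyond the box, to A or G before it and to C or G and then A or G after it. Of the 390 boxes near the centre of downstream peaks, 83.3% (79.3 to 86.7%) were followed by C or G, as in the lines of *Nfya* and *Pcna* above, compared with 56.2% (48.1 to 64.1%) of 144 boxes in the windows 1000 bp to either side. Both bases before the box were A or G in 62.6%, against 28.5% in the side windows. The full set of 4 preferred bases, with A or G as the second base after the box, was found for 42.8% (38.0 to 47.8%), against 10.4% (6.41 to 16.5%). Boxes of core promoter peaks (47.2%) and proximal upstream peaks (40.7%) had like shares. Among the printed boxes of the highest peaks, only that of *Mylpf* had this set. Those of *Cic*, *Ppm1b*, *Fbxo24* and *Cdca3* lacked it. Of the printed boxes of listed genes, those of *Pcna*, *Hspa8*, *Hes1* and *Znf143* had it and those of *Nfya*, *Kat7* and *Idi1* did not.

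Other short motifs were counted in the same windows on both strands. GGGCGG, the core of the GC box bound by Sp factors, was in 203 downstream peaks (36.3%), compared with 21.3% of all peaks, 44.2% of core promoter peaks and 37.1% of proximal upstream peaks. GGAAGT, a core of Ets factor sites, was in 10.0%, compared with 8.12% of all peaks. The E-box CAGCTG, which MyoD can bind, was in 7.16% of downstream peaks and 15.1% of all peaks, but in 4.69% of core promoter and 5.79% of proximal upstream peaks. TGANTCA, the AP-1 element, was in 3.76% and 11.5%, and in 1.43% and 2.77% of those promoter classes. CACGTG was in 4.11% (3.16% of all peaks), TGACGTCA in 7 downstream peaks (0.729% of all peaks) and TATAAA in 6 (1.78% of all peaks). None of these motifs contains CCAAT or its reverse complement. Among downstream peaks without a box within 50 bp, 32.4% held GGGCGG and 13.4% held GGAAGT, compared with 39.7% and 7.07% of those with a box.

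Many downstream peaks were close to a second transcript start. The centre lay within 100 bp of some annotated transcript start in 225 of 559 downstream peaks (40.3%, 36.3 to 44.4%), compared with 26.8% of all peaks. The distance to the outermost start was part of the rule, and inner starts of a gene can only be near a peak on the downstream side, so no comparison with proximal upstream peaks was drawn from this share. A start of another gene lay within 100 bp in 31 downstream peaks (5.55%, 3.93 to 7.76%), and in 7.82% (6.45 to 9.46%) of proximal upstream peaks. In 198 of the 225 the nearest start belonged to the same gene, and in 27 to another gene. The centre lay upstream of that start in 161 and downstream of it in 63. A further 66 peaks were centred more than 100 and up to 200 bp upstream of the nearest start. In all, 227 downstream peaks (40.6%) lay within the 200 bp upstream of their nearest start. GENCODE lists many starts per gene, and with RefSeq starts the share within 100 bp was 26.5%.

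Measured from the nearer start, the boxes gathered just upstream of it. Against the gene start, boxes of downstream peaks had a median position of 369 bp downstream, and 751 of 795 (94.5%) lay downstream of it. In the 225 peaks near a transcript start, 265 of 354 boxes (74.9%) lay upstream of that start, with a median position of -52.5 bp. The stretch from 140 to 20 bp upstream of it held 204 of them (57.6%, 52.4 to 62.7%), and the mirror stretch downstream held 38 (10.7%). The centres of these peaks were themselves more often upstream than downstream of that start, as given above.

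Peaks near a transcript start were also higher. They had medians of 29, 31 and 30 normalised reads, and the 334 farther away had 17, 18.5 and 19, a log2 difference of 0.72 ± 0.06 (n = 3, exact p = 0.25). Among peaks that did not span the gene start the difference was 0.58 ± 0.17, with 21.5, 23 and 21 against 13, 15 and 16. Peaks near a start were also longer, with a median of 258 bp against 213.5 bp. Per kb the difference was 0.34 ± 0.12 over all downstream peaks and 0.28 ± 0.15 among those not spanning. Centres in a 5' UTR had medians of 33.5, 34 and 33.5 and those in an intron 16.5, 21 and 20. This difference of 0.82 ± 0.18 was 0.47 ± 0.18 per kb. It shrank to 0.17 ± 0.15 among peaks that did not span the start, which is close to the spread between libraries. By distance, medians were 54, 56 and 65 at 100 to 250 bp, 15, 16 and 17 at 250 to 500 bp, 25, 27 and 27.5 at 500 to 750 bp, and 14, 13 and 15 at 750 to 1000 bp. Without spanning peaks the first range had 17, 17 and 16.5, so that peaks at 500 to 750 bp had the highest medians.

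**Figure D4:**
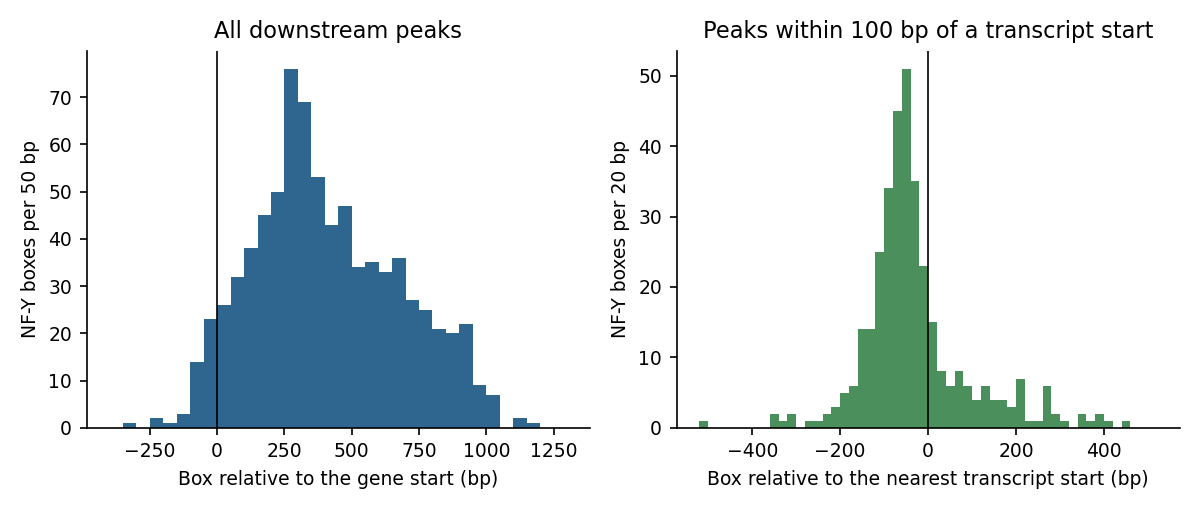
Positions of CCAAT boxes in downstream peaks, in number of boxes per bin. The left panel measures all 795 boxes from the gene start (50 bp bins) and the right panel measures the 354 boxes of peaks within 100 bp of a transcript start from that start (20 bp bins), where they gather just upstream of 0.

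Genes with a downstream peak could carry other promoter peaks as well. Of 539 genes, 111 (20.6%, 17.4 to 24.2%) also had a core promoter peak and 59 (10.9%) a proximal upstream peak, and 373 (69.2%) had neither. Among all 4178 coding genes with a peak, 41.8% had a core promoter peak and 28.4% a proximal upstream peak, and these include the genes whose only peak is there. For 309 genes (57.3%) the downstream peak was the only NF-YA peak annotated to the gene, and 81.2% of all coding genes with a peak had exactly 1. Peaks of genes with neither had medians of 24, 24 and 25 normalised reads, compared with 16, 19 and 20 for those beside a core promoter peak, a log2 difference of 0.41 ± 0.15 (n = 3, exact p = 0.25). The former group held all the spanning peaks of this comparison, which the rules on position nearly fix. Without spanning peaks its medians were 16, 16 and 17, and the difference was -0.16 ± 0.14 (n = 3, exact p = 0.5), so the direction did not hold.

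Where both were present, either could be the higher. In the 111 genes the downstream peak was below the core promoter peak in all 3 libraries in 60 genes and above it in all 3 in 37, and 14 were mixed. The median log2 difference within genes, computed on value + 1, was -0.73 ± 0.07. The downstream peaks of these genes were also shorter, with a median of 197 bp against 265 bp, and values per kb were not compared. *Chrnb1*, a subunit of the acetylcholine receptor of muscle, held 146, 134 and 138 downstream and 5, 3 and 5 at the core promoter. *Kctd9* was of the opposite kind, with 5, 13 and 5 downstream and 539, 668 and 613 at the core promoter. These examples were chosen after their values were seen. *Prmt1*, an arginine methyltransferase gene, held 15, 27 and 16 in its downstream peak at 896 bp and 361, 384 and 354 at the core promoter. Few genes had several downstream peaks. There were 18 with 2. *Ddx54*, an RNA helicase gene, had comparable peaks at 271 bp (62, 56 and 56) and at 723 bp (78, 80 and 98).

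Leaving out chromosome 18, the 12 downstream peaks with the highest means ranked between 1 and 84 among all 9056 peaks. They were 769 to 1223 bp long, held 5 to 11 boxes each, and 9 of them spanned the gene start. In 7 of the 12, another gene started within 1000 bp in the divergent direction. Among all downstream peaks, 197 (35.2%) had starts of at least 2 genes within 1000 bp, a share not split by direction. The part of peak length in this was not tested, and nothing particular to the highest peaks is drawn from the count of 7. *Cic*, which encodes a repressor that acts downstream of receptor tyrosine kinases, had the highest level of the whole series, with 832, 1083 and 1075 normalised reads in replicates 1, 2 and 3. Its peak held 10 boxes over 1223 bp, none of them within 50 bp of the centre. *Ppm1b*, a protein phosphatase gene, followed with 544, 782 and 737. Its centre lay 720 bp inside the gene, but 39 bp upstream of the start of the divergent long noncoding RNA 1110020A21Rik. *Fbxo24* held 573, 663 and 654, with the divergent gene *Lrch4* starting 288 bp away. *Mylpf*, the regulatory light chain of fast muscle myosin, held 469, 748 and 600, and the divergent *Tbc1d10b* started 689 bp away. *Cdca3*, a regulator of entry into mitosis, held 369, 672 and 558 beside the divergent *Usp5* at 365 bp. Reads of a peak between divergent genes cannot be divided between them.

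The remaining high peaks belonged to *Spag7*, *Ensa*, *Rbm15*, *Opa3*, *Nbr1*, *Dcaf11* and *Ppp2r1a*. *Ensa* and *Ppp2r1a* encode an inhibitor and the scaffold subunit of protein phosphatase 2A, and held 452, 523 and 580, and 310, 307 and 343, respectively. *Rbm15*, a factor of the RNA methylation machinery, held 404, 480 and 464. *Nbr1*, an autophagy receptor gene, held 344, 414 and 429, and *Dcaf11* held 274, 353 and 419. *Spag7* held 479, 553 and 524 at 523 bp, without reaching the gene start. Replicate 1 was the lowest library in 11 of these 12 peaks.

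NF-Y targets and regulators of MuSCs were read from gene lists. Of the genes of the NF-Y complex, all 3 had a coding peak and *Nfya* had a downstream one. It held 187, 174 and 184 normalised reads, a mean of 182 ± 6.81 (SD, n = 3), and its CV of 3.75% was the lowest of the named peaks. Its centre was 129 bp downstream of the gene start and 12 bp upstream of another *Nfya* start. The peak held 4 boxes, of which the printed one lay 88 bp from the centre.

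Chromatin genes contributed 7 of the 38 listed genes with a coding peak, or 18.4%, beside 12.9% of all such coding genes. *Kat7*, a histone acetyltransferase gene, held 119, 93 and 131, while its core promoter peak held 9, 16 and 10. Its centre lay 530 bp inside the gene and 115 bp upstream of an inner *Kat7* start. *Ezh2*, the methyltransferase of Polycomb complex PRC2, held 82, 71 and 72, with its centre 126 bp upstream of another *Ezh2* start. *Uhrf1*, which guides maintenance DNA methylation, held 79, 74 and 60 and lay 195 bp upstream of an inner start. Its core promoter peak was as high, at 69, 64 and 69. *Phf20*, of the NSL complex around the acetyltransferase MOF, had a peak with 19, 24 and 25 and a lower one with 9, 9 and 10. The higher *Phf20* peak was centred 322 bp downstream of its nearest start. *Setd1a* and *Mbd3* were near the floor, with means of 8 and 4.67. Levels in this list thus spanned a wide range.

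Of 42 listed cell cycle genes with a coding peak, 3 (7.14%) had a downstream one. *Kif20a*, a kinesin of cell division, held 70, 103 and 114. *Pcna*, the sliding clamp of DNA replication, held 76, 93 and 97, next to a core promoter peak of 58, 72 and 81. *E2f8*, a repressor of the E2F family, held 67, 33 and 51, a wide spread. The boxes nearest the centre lay 108 bp upstream of an inner start in *Pcna* and 83 bp upstream of one in *E2f8*. The centre of *Kif20a* lay 72 bp downstream of its nearest start.

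Genes of sterol and fatty acid synthesis gave 5 of 26 (19.2%). *Idi1*, the isopentenyl diphosphate isomerase, held 135, 168 and 190 and had 5 boxes. *Scd2*, a fatty acid desaturase, held 96, 117 and 107, and *Insig1*, which retains the SREBP machinery in the endoplasmic reticulum (ER), held 90, 112 and 105. *Msmo1*, a sterol oxidase, held 96, 90 and 109. All 4 were at 90 or above in each library, and the centre of *Scd2* and of *Msmo1* lay 102 and 100 bp upstream of another start of the same gene. The centre of *Idi1* lay 84 bp downstream of its nearest start, that of *Gm48574*. The centre of *Insig1* lay 638 bp downstream of its nearest start.

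ER stress and chaperone genes gave 5 of 28 (17.9%). *Hspa8*, the constitutive Hsc70 chaperone, held 145, 205 and 243, with a neighbouring proximal upstream peak. *Xbp1*, a transcription factor of the unfolded protein response, held 56, 61 and 80, and its co-chaperone target *Dnajb9* held 37, 27 and 42. *Atf6b* held 7, 13 and 4 downstream and 112, 100 and 128 at the core promoter. *Herpud1* had a mean of 7.67. *Xbp1* and *Dnajb9* were centred 125 and 103 bp upstream of another start of their own. *Hspa8* and *Atf6b* were centred 106 and 418 bp downstream of their nearest start.

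Myogenic genes gave 3 of 17 (17.6%), and all of them encode inhibitory helix-loop-helix proteins. *Hes1*, a target of Notch, held 84, 87 and 105 downstream but 6, 3 and 8 at its core promoter. *Id2* held 100, 77 and 79 at 926 bp, and *Id3* held 13, 33 and 29. Their centres lay 90, 122 and 88 bp upstream of other starts of *Hes1*, *Id2* and *Id3*. *Hes1* and *Id2* had a box 6 and 4 bp from the centre, and the *Id3* peak held none over its whole length.

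Among partner factors, 1 of 8 genes (12.5%) had downstream peaks. *Znf143*, named Zfp143 in GENCODE, held 234, 228 and 262 at 335 bp and 9, 6 and 5 at 791 bp. None of the 16 immediate early and AP-1 genes with a coding peak had a downstream one, and none of the 2 listed markers of other cell types with a coding peak. The lists together held 27 downstream peaks, of which 15 were centred up to 200 bp upstream of their nearest start and 14 had a box within 50 bp. Over all 559 downstream peaks the corresponding shares were 40.6% and 53.1%. The shares of single lists rest on 1 to 8 peaks and are given as counts, with nothing particular to a list drawn from them.

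**Figure D5:**
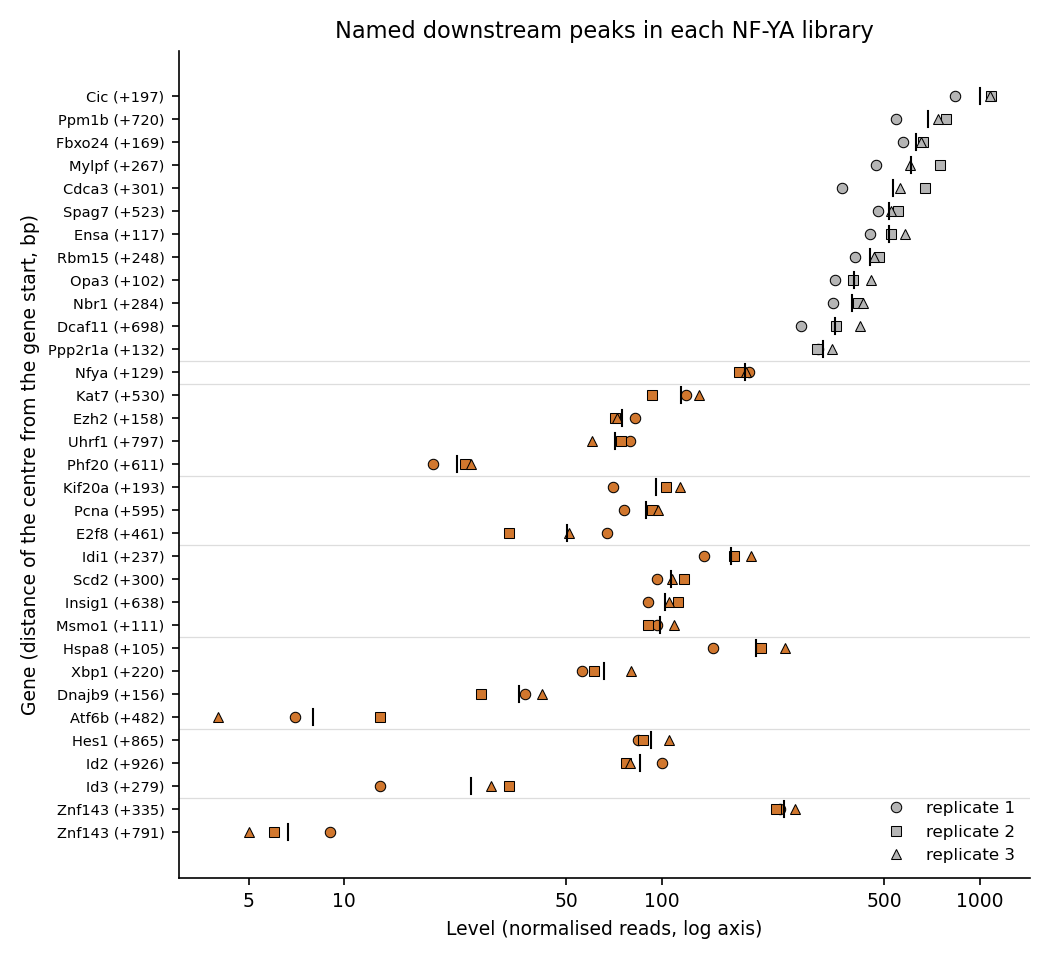
Level of each named downstream peak (rows, with the distance of the centre from the gene start in bp) in the 3 NF-YA libraries (symbols), in normalised reads on a log axis, with a bar at the mean. Grey rows are the 12 highest peaks outside chromosome 18 and orange rows, in blocks by list, the peaks of listed genes. Most listed peaks lie between 50 and 250 normalised reads, and *Atf6b* and the second *Znf143* peak lie near 10 or below.

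The 3 libraries ranked the downstream peaks alike. Across the 559 peaks, Pearson's r of log2(value + 1) was 0.902 between replicates 1 and 2, 0.925 between 1 and 3 and 0.934 between 2 and 3, as a description over peaks that share libraries and peak calls. The median CV over the libraries was 21.8%, compared with 19.0% for core promoter peaks, 18.4% for proximal upstream peaks and 25.4% for all peaks. The highest library exceeded the lowest more than 2-fold in 140 of the 559 downstream peaks, against 30.5% of all peaks. Among the 298 downstream peaks with a mean of at least 20, this held for 21, of which 15 had their lowest value in replicate 1 and 6 in replicate 2. Over all 298, the lowest value was in replicate 1 for 138, in replicate 2 for 107 and in replicate 3 for 53. The widest was the *Ddx5* peak at 586 bp, an RNA helicase gene, with 6, 31 and 37. *Pramel12* held 33, 109 and 77, and *Acta2*, the smooth muscle actin gene, held 34, 90 and 100. For these peaks replicate 1 was below both other libraries. The paper lists shorter reads, fewer sequenced reads and more called peaks for this library than for the other NF-YA libraries of the series. A bearing of these differences on the low values of replicate 1 was not tested. Whether the cells or the libraries differed cannot be told apart.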

How the data were processed

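NF-YA CUT&RUN was analysed in 3 libraries of cultured wild-type MuSCs, which the study describes as biological replicates. According to the methods, the authors used Trimmomatic 0.39, STAR 2.7.9a with mm10 and Picard 2.25.5, called MACS2 peaks per NF-YA library relative to IgG, merged them into a common set, and counted reads with featureCounts before normalisation with DESeq2 1.30.0. The deposited unit is a score, namely scaled read numbers that the authors rounded to whole numbers and did not correct for length. They are not raw counts, so no count model was used. The scaling hides any change of all peaks together, and peaks were called on the libraries whose levels are given.

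The worth of 1 read was estimated from the steps of the rounded values as 0.67, 1.48 and 1.02 normalised reads in replicates 1, 2 and 3, giving about 477083, 226909 and 334618 reads in all peaks. Shares carry 95% Wilson intervals and differences of shares Newcombe intervals, which, like the floor of 3 reads, cover counting error only. Levels were compared as log2 ratios of medians per library (mean ± SD over 3 libraries), with an exact two-sided sign-flip test. No test was run over peaks, which are not replicates.

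Transcript starts and the place of the centre came from GENCODE M21, in which 551 of the 559 peaks had a gene with the same start and end. Sequences were read from GRCm38.p6. Deposited starts were read as counted from 0, and printed positions count from 1. There were 0 per-sample columns without a sample.

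The members and gene lists were chosen with earlier results of these data known. Named were the 12 highest peaks outside chromosome 18, up to 4 peaks per gene list, the 2 peaks nearest each distance limit on either side, and the genes with the most downstream peaks, of which *Ddx54* and *Znf143* led those with 2. Some items are not reported here. *Chrnb1*, *Kctd9*, *Prmt1*, *Ddx5*, *Pramel12*, *Acta2* and the weaker peaks of *Phf20*, *Setd1a*, *Mbd3* and *Herpud1* were added after their values were seen. Alternatives covered values per kb, a minimum mean of 10, other distances and windows, spanning peaks, other transcript starts and leaving out each replicate. Python 3.11.15, numpy 2.4.6, pandas 2.3.3, scipy 1.17.1, statsmodels 0.14.6, pysam 0.24.0 and matplotlib 3.10.9 were used, and the functions were tested on simulated data.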

Additional observations from a re-analysis of the deposited data

How the results depend on the processing

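Of 39 alternatives to 7 results, 18 stayed within the error of the reported value, 20 were counted as moved and 1 reversed. The median CV had no error to compare with, and its alternatives are among those counted as moved. The log2 difference to core promoter peaks (-0.45) was -0.23 per kb, -0.0065 with means of at least 10, -0.37 with a limit of 500 bp, -0.77 without peaks at a transcript start, and -0.87 without peaks that span the gene start. It was -0.43 to -0.47 with 1 replicate left out. The difference to proximal upstream peaks (-0.69) was -0.32, -0.51, -0.83 and -1.01 in the first 4 of these settings, -0.67 to -0.71 with 1 replicate left out, and reversed to 0.25 when only peaks that do not span the start were compared. The median CV of 21.8% became 18.1% with means of at least 10 and 16.4% to 19.3% with 1 replicate left out. A CV over fewer values tends to have a lower median, so the decreases with a replicate left out cannot be read as sensitivity. The share with CCAAT (53.1%) was 68.0% within 100 bp and 71.7% in the whole peak, and stayed within its interval otherwise. The share of boxes on the strand of the gene stayed within its interval (38.8 to 48.5%) in its 6 alternatives, but over whole peaks its own interval reached 50.1%. The share at a transcript start (40.3%) was 20.2% at 50 bp, 62.8% at 200 bp, 32.2% with protein-coding transcripts and 26.5% with RefSeq starts. The share of genes with a core promoter peak (20.6%) was 28.6% when the core reached 250 bp upstream. The alternatives on spanning peaks and RefSeq starts were chosen after seeing the data, and causes were not tested. No paired analysis was possible because values of the IgG libraries, which share replicate numbers with the NF-YA libraries, were not analysed here. The number of reads in peaks limits weak peaks most, in replicate 2 above all.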
